A study of Mus musculus with 2 samples.

Results

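The genes described here encode the enzymes that make nucleotides, together with the folate and serine enzymes that supply their single-carbon units. The 38 members were taken by gene name from the gene tables of both libraries, which list 43346 named Ensembl genes. The study read polyA-selected RNA of G1E-ER4, an immortalised mouse erythroid line, by paired-end sequencing of 2 libraries. These cells derive from G1E cells, which lack GATA1, and carry GATA1 joined to an estrogen receptor domain, so that estradiol turns on red cell maturation. The cells of both libraries had 10 nM 17beta-estradiol for 14 h, and the libraries are numbered as biological replicates 1 and 2 of the same group. Because they carry a single biosample record in the labels, part of their spread may be technical. No untreated sample was analysed here, so every value is a level after estradiol or a difference between these libraries, and not a response.

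Cells build purines on a ribose phosphate backbone made by PRPP synthetase, and pyrimidines by forming the ring first and adding the ribose phosphate afterwards. Ribonucleotide reductase turns the resulting diphosphates into deoxynucleotides for DNA, and thymidylate synthase adds the methyl group of thymine from a folate cofactor. Serine, taken up or made from a glycolysis intermediate, gives its side-chain carbon to folate through the SHMT enzymes, in the cytosol or in mitochondria. Erythroblasts divide quickly as they mature, and a shortage of folate is a known cause of anaemia with enlarged red cell precursors.

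Levels are given in TPM, transcript numbers per length scaled to a total of 1000000, so that genes can be compared with each other. Expressed means at least 1 TPM in each library, high means at least 50 TPM in each, and not detected means under 0.1 TPM in each. Expected counts, the reads assigned to a gene, summed to 38395481 in replicate 1 and 60097379 in replicate 2. All 8 erythroid markers checked were expressed, with summed levels of 22994 TPM in replicate 1 and 74353 TPM in replicate 2, most of it globin. Among them Gata1 had 1132 TPM in replicate 1 and 2656 in replicate 2. The cells carry a GATA1 fusion, so this level does not bear on cell identity, and the part from the fusion was not tested. The list did not move as a whole, since Klf1, an erythroid transcription factor gene, had 1422 TPM in replicate 1 and 754.3 TPM in replicate 2, and Epor, the erythropoietin receptor gene, had 116.3 and 140 TPM. Of 20 markers of myeloid, lymphoid, megakaryocyte and stromal cells, 1 was expressed (Itga2b, at 4.84 and 6.09 TPM) and 9 had 0 counts in both libraries. The 5 lymphoid markers summed to 0.23 TPM in replicate 1 and 1.56 in replicate 2. In bulk RNA, fewer cells with a message and less of it per cell cannot be told apart.

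Several members resemble other genes closely, which bears on how reads could be divided between them, and the sequences of 3 such cases are shown. The first sequences show coding bases 604 to 693 of Prps1 (chromosome X, 140456613 to 140476140, plus strand) and of its copy Prps1l3 (chromosome 12, 57230412 to 57239882, plus strand). The next show coding bases 1357 to 1446 of Phgdh (chromosome 3, 98313170 to 98339990, minus strand) and bases 1359 to 1448 of its processed pseudogene Gm7901 (chromosome 8, 75711600 to 75713196, minus strand). Each pair is the stretch of 90 bases with the most differences, and capitals mark the bases that differ. The last is the junction in Gm20390 (chromosome 11, 93949819 to 93968293, minus strand), a gene model that joins exons within Nme1 to exons within Nme2, and its capitals mark the bases on the Nme2 side. All are read from the transcripts of GENCODE M21 on GRCm38, 5′ to 3′.
Prps1-201: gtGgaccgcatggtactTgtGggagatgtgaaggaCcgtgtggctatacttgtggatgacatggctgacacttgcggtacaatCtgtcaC
Prps1l3-201: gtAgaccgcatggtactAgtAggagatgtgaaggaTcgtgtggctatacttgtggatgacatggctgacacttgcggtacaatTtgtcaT
Phgdh-201: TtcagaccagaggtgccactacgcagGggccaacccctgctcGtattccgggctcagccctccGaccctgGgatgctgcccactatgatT
Gm7901-201: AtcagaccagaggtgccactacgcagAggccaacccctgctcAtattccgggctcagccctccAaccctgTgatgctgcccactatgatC
Gm20390-201 junction: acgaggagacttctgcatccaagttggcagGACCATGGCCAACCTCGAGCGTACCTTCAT

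The Prps1 and Prps1l3 coding sequences are 954 bases each and differ at 30 of them, an identity of 96.9%. Phgdh and Gm7901 differ at 18 of 1595 aligned bases, an identity of 98.9%. In Gm20390, 4 exons lie within the span of Nme1 and 4 within that of Nme2, and 26 of the 30 capitals are coding bases of Nme2-201 as well. Over all members, 17 of 38 share no run of 50 bases with the transcripts of any other gene, and 4 share more than 10% of their runs, namely Phgdh, Nme2, Impdh2 and Nme1. Counts were whole numbers for 34 members and fractional, a mark of divided reads, for Impdh2, Nme1, Nme2 and Prps1.

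Nearly the whole set was expressed. Of the 38 members, 35 (92.1%) passed 1 TPM in both libraries, against 37.6% of all protein-coding genes. At 50 TPM or more in both libraries there were 6 members, which is 17.1% of the expressed members, against 24.2% of the expressed protein-coding genes. The high genes were Rrm2, Shmt2, Cad, Dut, Tk1 and Impdh2. Phgdh, Ctps2 and Adssl1 were not detected. Over the expressed members the median level was 23.9 TPM, against 20.3 TPM for expressed protein-coding genes. All members together made up 0.172% of the TPM total in replicate 1 and 0.248% in replicate 2.

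**Figure D1:**
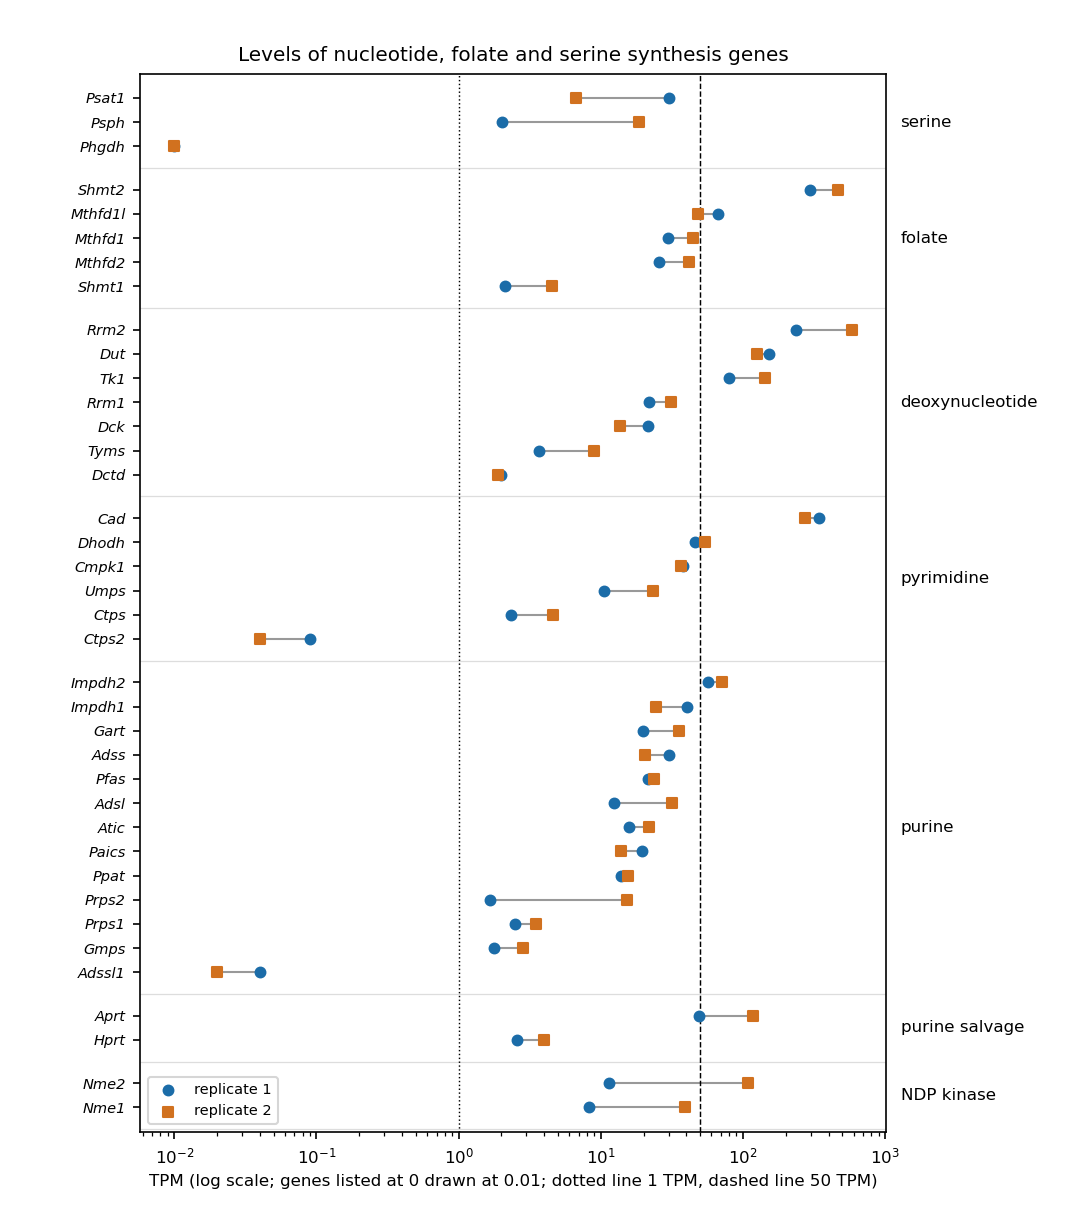
Level of each of the 38 members in TPM on a log axis, grouped by step, with replicate 1 as circles and replicate 2 as squares. Dotted and dashed lines mark 1 and 50 TPM, and a gene listed at 0 is drawn at 0.01. Rrm2, Shmt2 and Cad lie farthest to the right, and Phgdh, Ctps2 and Adssl1 are the only members left of 0.1 TPM in both libraries.

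In the serine step the message of the first enzyme was not detected. Phgdh encodes phosphoglycerate dehydrogenase, which commits a glycolysis intermediate to serine, and it had 0 counts in replicate 1 and 0 in replicate 2. A count of 0 allows up to 3 counts, equal to 0.0781 CPM (counts per 1000000 in all) in replicate 1 and 0.0499 in replicate 2, which covers counting error only. Both later enzymes of the pathway were expressed. Psat1, the aminotransferase that follows PHGDH (chromosome 19, 15904678 to 15947337), had 773 counts in replicate 1 and 697 in replicate 2. Per base of the longest coding transcript, Phgdh was at least 186-fold lower than Psat1 in replicate 1 and at least 168-fold lower in replicate 2, taking 3 counts per library as the limit for Phgdh.

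The zero of Phgdh was examined for reads placed elsewhere. Of the 2434 runs of 50 bases in its annotated transcripts, 1163 (47.8%) also occur in other genes, among them 19 pseudogenes. The remaining runs are found in Phgdh alone among annotated transcripts. Counts are given per gene and transcript and not per run, so reads of these runs were not examined apart. Of those 19 pseudogenes, 9 are in the deposited tables, with 1 count in all in replicate 1 and 0 in replicate 2. How the authors' alignment treated reads with many placements is not given in the sources used here.

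By TPM, Psat1 stood at 30.2 in replicate 1 and 6.66 in replicate 2, while Psph, the phosphatase that releases serine, stood at 2.03 in replicate 1 and 18.7 in replicate 2. The order of these genes was therefore opposite in the libraries. For Psat1, 73.4% of the TPM in replicate 1 and 12.1% in replicate 2 lay on Psat1-202, a processed transcript of 438 bases, while the full coding transcript Psat1-201 held 440.1 and 493.8 counts. On coding transcripts alone the libraries gave closer Psat1 levels, with shares of 25.9% and 64.6% of the gene's TPM. Psph had 83 counts in replicate 1, all on coding transcript Psph-201, and 826 in replicate 2, with 111 of them on a processed transcript of 446 bases. Psph overlaps the chaperonin gene Cct6a by 452 bases on the opposite strand, and Cct6a had 2633 counts in replicate 1 and 7831 in replicate 2.

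Among the folate enzymes, the mitochondrial serine hydroxymethyltransferase stood out. Shmt2 (chromosome 10, 127517123 to 127522444), which moves the serine carbon to folate in mitochondria, had 295.5 TPM in replicate 1 and 463.5 in replicate 2. Its cytosolic counterpart Shmt1 (chromosome 11, 60788104 to 60811718) had 2.12 TPM in replicate 1 and 4.54 in replicate 2. The ranges are far apart. The log2 ratio of Shmt2 over Shmt1, of TPM + 0.1, was 6.85 ± 0.29 (SD, n = 2), with Shmt2 making up 99.3% and 99.0% of their summed TPM. Counts divided by the longest coding transcript gave a log2 ratio of 7.88. Shmt2 has 1 annotated transcript in the tables, so its level does not depend on a choice of transcript, whereas 34.0% and 22.3% of the Shmt1 TPM lay on its coding transcript. That Shmt1 transcript held 78.3% of the Shmt1 counts in replicate 1 and 42.5% in replicate 2.

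The remaining folate genes were intermediate, with Mthfd1l above Mthfd1 and Mthfd2 in both libraries. Mthfd1, the cytosolic enzyme that interconverts folate-bound carbon units (chromosome 12, 76255298 to 76319803), had 29.6 TPM in replicate 1 and 44.8 in replicate 2. Mthfd2, the mitochondrial dehydrogenase and cyclohydrolase (chromosome 6, 83305691 to 83325908), had 25.5 TPM in replicate 1 and 41.6 in replicate 2. Mthfd1l, the mitochondrial formate-releasing synthetase (chromosome 10, 3973118 to 4167081), had 66.8 TPM in replicate 1 and 48.1 in replicate 2. The log2 ratio of Mthfd2 over Mthfd1 was -0.16 ± 0.08 and that of Mthfd1l over Mthfd1 was 0.64 ± 0.76 (SD, n = 2 each), and neither mean was over 2 times the range between the libraries. So the wide gap between the mitochondrial and cytosolic forms was measured for the SHMT pair and not for the MTHFD genes.

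Deoxynucleotide synthesis held the member with the highest mean TPM, Rrm2, although Cad (343.4 TPM) and Shmt2 (295.5 TPM) were above it in replicate 1. Rrm2 encodes the small, cell-cycle-regulated subunit of ribonucleotide reductase (chromosome 12, 24708241 to 24714146) and had 237.6 TPM in replicate 1 and 581.8 in replicate 2. The large subunit gene Rrm1 (chromosome 7, 102441695 to 102469771) had 21.9 TPM in replicate 1 and 31.2 in replicate 2. The subunits work as a complex. Rrm2 exceeded Rrm1 by 3.83 ± 0.55 on the log2 scale of TPM + 0.1 (SD, n = 2), a ratio of 10.8 in replicate 1 and 18.6 in replicate 2. Nearly all of the TPM of both genes lay on coding transcripts.

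Dut, which destroys dUTP and yields the dUMP used for thymidylate (chromosome 2, 125247190 to 125258608), had 151.2 TPM in replicate 1 and 125.8 in replicate 2. Tk1, the cytosolic thymidine kinase (chromosome 11, 117815526 to 117826092), had 79.3 TPM in replicate 1 and 143 in replicate 2. These ranges overlap, so the order of Dut and Tk1 is not resolved. Dck, the deoxycytidine kinase, had 21.6 TPM in replicate 1 and 13.7 in replicate 2. The log2 ratio of Tk1 over Dck was 2.62 ± 1.06 (SD, n = 2), positive in both libraries but under 2 times their range. Dctd, the dCMP deaminase that also feeds dUMP, was near the expression limit, with 2.00 TPM in replicate 1 and 1.90 in replicate 2.

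Tyms, the thymidylate synthase gene (chromosome 5, 30058202 to 30073617), was among the lower expressed members, with 3.69 TPM in replicate 1 and 8.89 in replicate 2. Only 24.0% of that in replicate 1 and 8.30% in replicate 2 lay on the coding transcript Tyms-201, and most of the rest lay on Tyms-202, a retained-intron model of 816 bases. By counts Tyms-201, of 3163 bases, held 56.1% in replicate 1 and 28.3% in replicate 2. Thus the genes around dTMP ranged from Dut and Tk1 among the high genes to Tyms and Dctd among the lowest expressed members.

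In pyrimidine synthesis, Cad led by TPM and the later steps were lower. Cad encodes the multifunctional protein that opens the pathway (chromosome 5, 31054780 to 31078479) and had 343.4 TPM in replicate 1 and 273.3 in replicate 2. That level depends on a short model: 89.6% of the TPM in replicate 1 and 71.8% in replicate 2 lay on a transcript of 582 bases that is absent from the newer annotation. The coding transcript Cad-201, of 7137 bases, held 63.1% and 74.9% of the counts but 9.66% and 15.9% of the TPM. Per base of that transcript, on a scale where expressed coding genes stand at a median of 1.40 times their TPM, Cad had 90.1 in replicate 1 and 98.3 in replicate 2. By mean level, Cad moved from place 3 to 7 among the members, and Rrm2 and Shmt2 stayed at 1 and 2. In replicate 1 Shmt2 was above Rrm2 in both units.

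Dhodh, the mitochondrial dihydroorotate dehydrogenase (chromosome 8, 109591343 to 109608673), had 45.7 TPM in replicate 1 and 53.8 in replicate 2. Retained-intron models held 89.5% and 87.3% of it and transcripts coding in the newer annotation held 0% and 2.25%. A transcript of 2318 bases that is absent from the newer annotation held 9.71% and 10.2% of the TPM. It had 25.1% of the counts in replicate 1 and 31.9% in replicate 2, and whether it is coding was not tested. Umps, which completes UMP (chromosome 16, 33954782 to 33967038), had 10.5 TPM in replicate 1 and 23.3 in replicate 2. Its makeup turned over between the libraries, with 77.2% in replicate 1 and 10.8% in replicate 2 on a model marked for nonsense-mediated decay. The Umps transcripts are 3484 and 3283 bases long, so they are divided by nearly the same length.

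Of the CTP synthetases, Ctps was expressed, at 2.34 TPM in replicate 1 and 4.60 in replicate 2. Ctps2 had 8 counts in replicate 1 and 7 in replicate 2, at 0.09 and 0.04 TPM. Their log2 ratio was 4.38 ± 0.98 (SD, n = 2) and passed the criterion. Ctps2 was below the 0.1 TPM added, so the size depends on that amount, and with 1 TPM added the log2 ratio was 2.02. Cmpk1, the kinase that makes UDP and CDP (chromosome 4, 114959336 to 114987241), was nearly the same in both libraries, with 37.6 TPM in replicate 1 and 36.4 in replicate 2.

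Of the 13 purine members, 12 were expressed and 1, Impdh2, was high. The median over the 13 was 18.8 TPM, against 26.9 TPM for the 6 pyrimidine members, and with coding transcripts alone the order turned, at 9.32 and 7.41 TPM. Coding here follows the newer annotation, which lacks some models of Cad and Dhodh. Ppat, the committed step (chromosome 5, 76913249 to 76951578), had 13.8 TPM in replicate 1 and 15.6 in replicate 2. Gart, which carries several of the following steps, had 19.9 TPM in replicate 1 and 35.2 in replicate 2. Pfas, which adds nitrogen from glutamine, had 21.6 TPM in replicate 1 and 23.6 in replicate 2. By TPM, Ppat and Pfas were close in the libraries, and Gart was higher in replicate 2.

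Paics, which acts after GART and PFAS (chromosome 5, 76951307 to 76967509), had 19.4 TPM in replicate 1 and 13.9 in replicate 2. It lies head to head with Ppat, and the annotated genes overlap by 272 bases on opposite strands. The log2 ratio of Paics over Ppat was 0.16 ± 0.46 (SD, n = 2), with opposite signs in the libraries. Adsl, which splits off fumarate both on the way to IMP and on the way to AMP, had 12.4 TPM in replicate 1 and 31.8 in replicate 2. Atic, which closes the ring to IMP, had 15.7 TPM in replicate 1 and 21.9 in replicate 2.

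At the branch from IMP, the guanine and adenine arms were both present. Impdh2, the IMP dehydrogenase linked to proliferation (chromosome 9, 108560286 to 108565584), had 57 TPM in replicate 1 and 71.4 in replicate 2. Impdh1, its isozyme, had 40.6 TPM in replicate 1 and 24.5 in replicate 2. Impdh2 was the higher in both libraries, but the log2 ratio of 1.01 ± 0.74 (SD, n = 2) was under 2 times the range. Impdh2 shares 39.3% of its runs of 50 bases with the pseudogene Impdh2-ps, which held 7.88 counts in replicate 1 and 9.95 in replicate 2. Of the Impdh2 TPM, 61.5% in replicate 1 and 63.2% in replicate 2 lay on Impdh2-202, a coding model of 840 bases. On coding transcripts alone Impdh2 had 47.1 and 51.8 TPM, and per base of the longest coding transcript 45.6 and 47.9. In replicate 1 it was therefore under 50 in either unit. Gmps, which completes GMP, was low at 1.77 TPM in replicate 1 and 2.82 in replicate 2.

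Adss, the adenylosuccinate synthetase of most tissues, had 29.9 TPM in replicate 1 and 20.4 in replicate 2, whereas the muscle form Adssl1 had 2 counts in each library. Adss over Adssl1 gave a log2 ratio of 7.58 ± 0.23 (SD, n = 2) of TPM + 0.1, and 4.64 with 1 TPM added, since Adssl1 was below either amount. Of the Adss TPM, 95.8% and 86.8% lay on retained-intron models, and on coding transcripts alone the log2 ratio was 3.91. The direction did not depend on that choice, but the size did.

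Purine salvage was uneven. Aprt, which recycles adenine (chromosome 8, 122574635 to 122576909), had 49.3 TPM in replicate 1 and 118.2 in replicate 2. Hprt, which recycles hypoxanthine and guanine (chromosome X, 52988137 to 53021659), had 2.59 TPM in replicate 1 and 3.99 in replicate 2. The log2 ratio of Hprt over Aprt was -4.53 ± 0.46 (SD, n = 2), and both genes have 1 transcript in the tables. Aprt has 58.5% GC and Hprt 40.1%, and the part of base composition in this gap was not tested. Across the 38 members the rank correlation of GC content with level was 0.34 and across the 36 tested members that of GC with the log2 ratio of the libraries was -0.26, both as descriptions over genes from the same libraries.

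**Figure D2:**
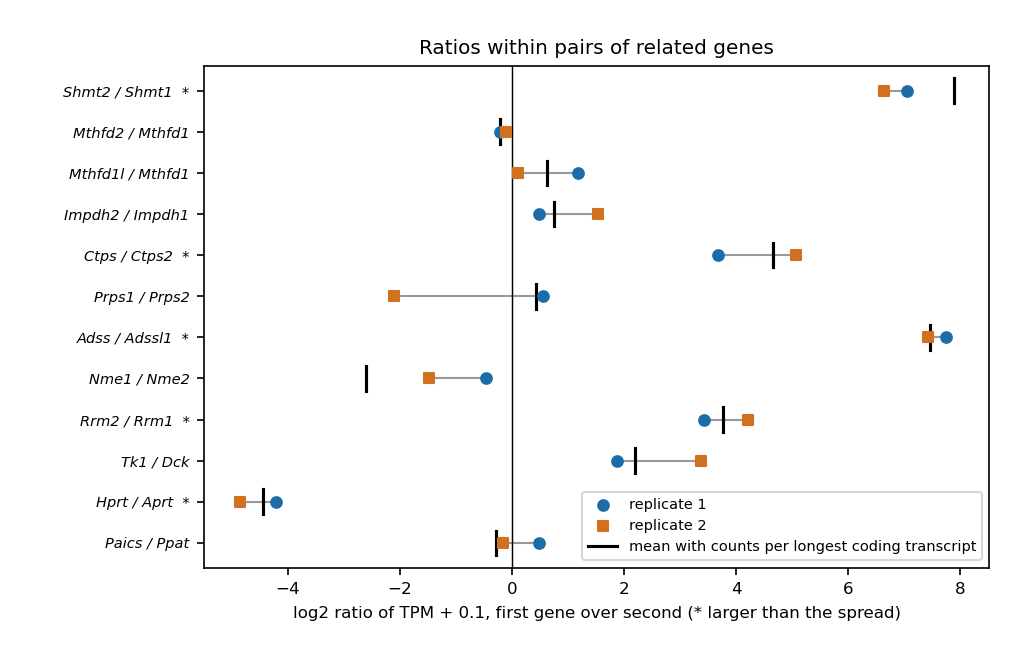
Log2 ratio of TPM + 0.1 within 12 pairs of related genes, first over second, in replicate 1 (circles) and replicate 2 (squares), with the mean from counts per longest coding transcript as a black bar. The 5 pairs marked with an asterisk have a mean over 2 times the range between the libraries, and Prps1 over Prps2 and Paics over Ppat lie on both sides of 0.

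In all, 5 of the 12 pairs passed, the SHMT, CTP synthetase, adenylosuccinate synthetase, ribonucleotide reductase and salvage pairs. The same 5 pairs also passed with coding transcripts alone and with counts per longest coding transcript. By TPM of all transcripts the other 7 did not pass. Of these, Prps1 over Prps2 passed with coding transcripts alone and Mthfd2 over Mthfd1 passed with counts per longest coding transcript, so 6 pairs passed in each of those units.

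The PRPP synthetases, which supply ribose phosphate to purine and pyrimidine routes, were not ranked by TPM of all transcripts. Prps1 had 2.50 TPM in replicate 1 and 3.50 in replicate 2. Prps2 (chromosome X, 167346322 to 167382749) had 1.67 TPM in replicate 1 and 15.4 in replicate 2. Their log2 ratio was -0.77 ± 1.88 (SD, n = 2), with opposite signs in the libraries. Of the Prps2 TPM, 81.7% and 97.6% lay on a processed transcript of 599 bases. On coding transcripts alone Prps1 exceeded Prps2 by 1.56 on the log2 scale and the pair passed, but at low levels. There Prps1 had 1.36 TPM in replicate 1 and 1.05 in replicate 2. Prps2 had 0.31 and 0.37 TPM, under the limit for expressed.

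Most reads of the PRPP synthetase family were assigned to the copy on chromosome 12. Prps1l3, whose sequence is set beside that of Prps1 above, had 1133 counts in replicate 1 and 1956 in replicate 2, against 86 and 144 counts for Prps1, which is 13.2 and 13.6 times as many. In TPM Prps1l3 stood at 23.7 in replicate 1 and 23 in replicate 2. Prps1 and Prps1l3 together gave 26.2 TPM in replicate 1 and 26.5 in replicate 2, a level near that of other purine genes. Prps1 shares 9.93% of its runs of 50 bases with Prps1l3, and counts of both were fractional.

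The nucleoside diphosphate kinases, which make triphosphates from diphosphates, had the same difficulty. Nme1 (chromosome 11, 93956979 to 93968521) had 8.29 TPM in replicate 1 and 39.4 in replicate 2, and Nme2 (chromosome 11, 93949814 to 93956259) had 11.5 TPM in replicate 1 and 109.3 in replicate 2. Of the Nme1 TPM in replicate 2, 87.5% lay on Nme1-202, a model of 452 bases with 0 counts in replicate 1. Per base of the longest coding transcript Nme1 had 5.87 in replicate 1 and 11.3 in replicate 2. The joined model Gm20390, whose junction is printed above, had 181.5 TPM in replicate 1 and 213.9 in replicate 2. It held 88.6% of the counts of these 3 genes in replicate 1 and 61.2% in replicate 2. Nme2 had 275.8 counts in replicate 1 and 5035 in replicate 2, and was 11-fold higher in replicate 2 by scaled counts. The 3 genes summed were 1.83-fold higher in replicate 2, at 201.2 TPM in replicate 1 and 362.6 TPM in replicate 2. The summed level was over 50 TPM in both libraries, whereas Nme1 and Nme2 were under it in replicate 1.

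**Figure D3:**
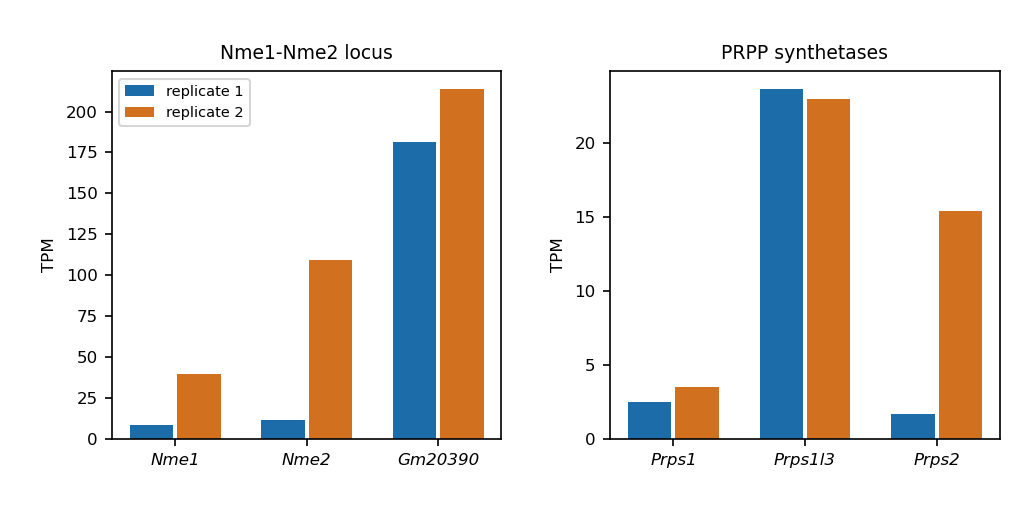
TPM of Nme1, Nme2 and Gm20390 (left panel) and of Prps1, Prps1l3 and Prps2 (right panel), with replicate 1 left of replicate 2 in each pair of bars. Gm20390 stands above Nme1 and Nme2 in both libraries, and Prps1l3 is near 23 TPM in both while Prps2 has 1.67 TPM in replicate 1 and 15.4 in replicate 2.

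The libraries were then compared gene by gene on counts scaled by the TMM method, using a two-sided exact binomial test with Benjamini-Hochberg adjustment over all 11230 tested genes. Calls needed an adjusted p below 0.05 and at least a 1.5-fold difference. The test compares these libraries and counts only sampling error. Of the 36 members tested, 22 (61.1%) were called, against 41.4% of all tested genes. The calls lay almost all on the same side. With more in replicate 1 there was 1 member (2.78%), against 17.1% of all tested genes, and with more in replicate 2 there were 21 (58.3%), against 24.3%. The median log2 ratio of replicate 1 over replicate 2 was -0.69 over the members and -0.05 over all tested genes. By the same test 6 of the 8 erythroid markers, Gata1 among them, were higher in replicate 2. Klf1 was higher in replicate 1 and Epor was not called. The part of these marker differences in the members' difference was not tested.

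**Figure D4:**
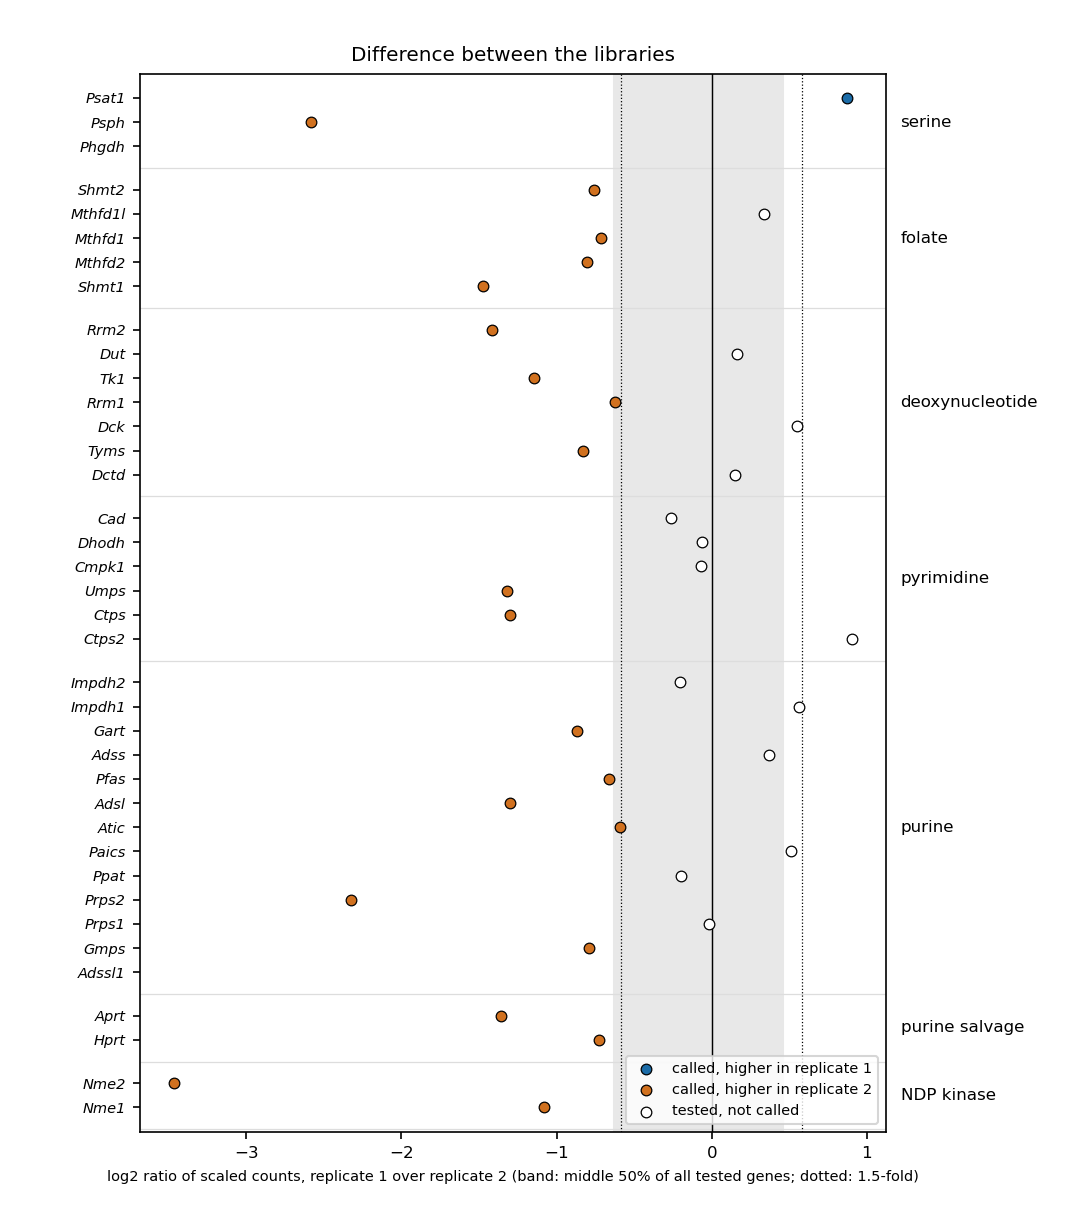
Log2 ratio of scaled counts, replicate 1 over replicate 2, for the 36 tested members by step, with filled points for called genes. The grey band holds the middle 50% of all tested genes, from -0.63 to 0.46, and the dotted lines mark a fold of 1.5. The 21 members called higher in replicate 2 lie left of the left dotted line, and Psat1 is the only called member on the right.

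By step the counts are small, and over all tested genes 24.3% were called higher in replicate 2 and 41.4% in either direction. In the pyrimidine step 2 of 6 tested members were called, Umps (2.50-fold higher in replicate 2) and Ctps (2.46-fold). The folate step had 4 of 5 in the same direction, Shmt1 (2.78-fold), Mthfd2 (1.75-fold), Shmt2 (1.69-fold) and Mthfd1 (1.64-fold). Mthfd1l was the exception, with a log2 ratio of 0.34 that did not reach the fold minimum. The deoxynucleotide step had 4 of 7, Rrm2 (2.67-fold), Tk1 (2.21-fold), Tyms (1.78-fold) and Rrm1 (1.54-fold), while Dut, Dck and Dctd had log2 ratios of 0.16, 0.55 and 0.15. The Tyms difference lay mainly on the retained-intron model Tyms-202, with 50.7 counts in replicate 1 and 286.7 in replicate 2. The coding transcript Tyms-201 had 81.4 and 120.6 counts, at 0.89 TPM in replicate 1 and 0.74 in replicate 2. Coding transcripts were not tested apart. Both salvage genes were higher in replicate 2, Aprt 2.56-fold and Hprt 1.65-fold, and so were both kinase genes, with Nme1 at 2.11-fold and Nme2 as given above.

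Among the 12 tested purine members, 6 were called, all higher in replicate 2, against 24.3% of all tested genes. Prps2 was 5.01-fold higher, on 52 counts in replicate 1 and 433 in replicate 2. Of these, 18.8 and 362 counts lay on the processed transcript of 599 bases, and the coding transcript had 33.2 and 71 counts. Adsl was 2.47-fold higher, Gart 1.83-fold, Gmps 1.73-fold, Pfas 1.58-fold and Atic 1.51-fold. Pfas, Atic and Rrm1 were within 1.5-fold by TPM. Impdh1, Paics and Adss leaned the other way, with log2 ratios of 0.56, 0.51 and 0.37, and missed the fold minimum, although by TPM Impdh1 and Dck passed it, higher in replicate 1. In the serine step Psph was 6-fold higher in replicate 2 (log2 ratio -2.59) and Psat1 was 1.83-fold higher in replicate 1 (log2 ratio 0.87, adjusted p = 3.44e-30 by the exact binomial test), so the tested members of that step differed in opposite directions.

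Transcript makeup was read for all expressed members. Of these 35, 17 had at least 90% of their TPM on coding transcripts in both libraries, and 7 had under 50% in both, namely Shmt1, Tyms, Cad, Dhodh, Prps2, Ppat and Adss. The most abundant transcript differed between the libraries for 8 members. Members with a second transcript at 10% or more of the gene in both libraries and a mean of at least 5 TPM were 9 in number. The makeup of other members is given here because their levels turned on it, a choice made after their values were seen.

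Dut had the steadiest mix, with 81.7% on Dut-201 in replicate 1 and 81.2% in replicate 2, and the remainder on Dut-202, both annotated as coding. Tk1 had 51.3% on its coding transcript in replicate 1 and 70.8% in replicate 2, and the rest on retained-intron models. Ppat had 57.3% on a retained-intron model in replicate 1 and 64.6% in replicate 2. In each of these genes the leading transcript was the same in both libraries. Paics had 44.3% on a retained-intron model of 443 bases in replicate 1 and 37.6% in replicate 2, which held 10.2% and 9.27% of its counts.

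Pfas and Adsl changed their leading transcript. Pfas had 20.0% of its TPM on the full-length Pfas-201 in replicate 1 and 51.5% in replicate 2, while the shorter coding model Pfas-204 had 38.1% and 9.98%. Adsl had 60.2% of its TPM on a model marked for nonsense-mediated decay in replicate 1 and 41.7% in replicate 2. For the retained-intron genes the leading model of Dhodh also changed, with 72.5% on Dhodh-208 in replicate 1 and 16.3% in replicate 2. These shares come from estimates that divide reads between overlapping models, and the strand setting of the counting is not given in the sources used here.

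**Figure D5:**
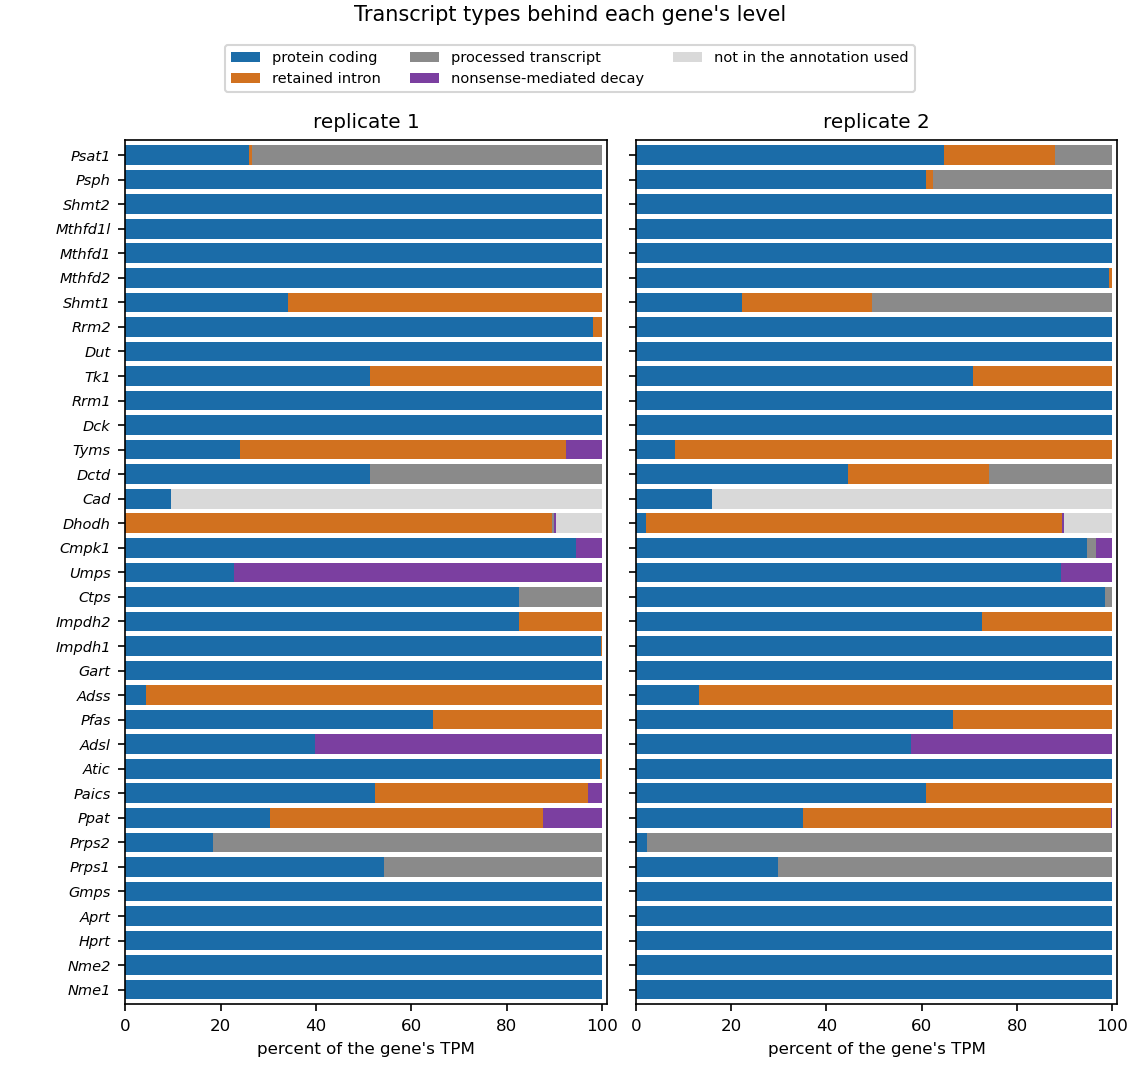
Percent of each expressed member's TPM on transcripts of each annotated type, replicate 1 in the left panel and replicate 2 in the right. Bars of Shmt2, Mthfd1, Dck, Rrm1 and Aprt are wholly protein coding in both libraries, whereas Cad lies mostly on models absent from the newer annotation and Adss and Dhodh on retained-intron models.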

How the data were processed

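PolyA RNA of 2 libraries of 1 group was analysed. The deposited expected counts are estimates in which reads that fit several features are split among them, so they can be fractional; per the file headers, the columns are named as in RSEM. The deposited TPM divides them by effective length, per the file headers, so reads placed on a short transcript give a high level. The deposited isoform percent gives the share of a gene's TPM on each transcript. The deposited notes name mm10 and GENCODE M4, while aligner, quantifier settings and strand use are not given in the sources used. Per the labels, reads are paired-end. Replicates were not pooled.

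Symbols, transcript types, lengths and coordinates came from GENCODE M21 (GRCm38, the same build), by Ensembl identifier without version. Rows without a gene name (26248, with 2 counts in replicate 1 and 0 in replicate 2) and 97 spike-in rows were left out. All 38 members matched. The members, the gene lists and the tests were chosen with earlier results of these data known.

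Expected counts were rounded and each gene was put to a two-sided exact binomial test (SciPy 1.17.1) on library sizes scaled by TMM (edgeR 4.0.16), wherever a gene's counts in the libraries added up to 10 or more. Calls needed a Benjamini-Hochberg adjusted p below 0.05 and at least a 1.5-fold difference after adding 0.5 counts to each library. With 1 library on each side edgeR's quasi-likelihood test cannot be fitted. The test step was tested on simulated data. Pair ratios used TPM + 0.1 and passed where the libraries shared a sign and the mean exceeded 2 times their range. A fixed-length level divided counts by the longest coding transcript of the gene. Runs of 50 bases were compared between the members' transcripts and all other M21 transcripts. The text names all 38 members, the 4 highest of the other listed pathway genes and those under 0.1 TPM in both libraries. Transcript makeup follows the rule given in the report. Intervals and limits for 0 counts cover counting error only, and replicate 2 is the deeper and the more precise for low genes. Alternatives covered DESeq2 1.42.0 size factors, total counts, count and fold minimums, the pseudocount, coding transcripts alone, fixed lengths and each library left out. A gene of the wider pathway list is not reported here.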

Additional observations from a re-analysis of the deposited data

How the results depend on the processing

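No paired analysis was possible because both libraries belong to 1 group. Members expressed numbered 26 at 5 TPM or more, 30 with coding transcripts alone, 34 with fixed lengths and 35 with either library left out. Members high numbered 4 at 100 TPM or more, 3 with coding transcripts alone (Rrm2, Shmt2 and Dut), 8 with fixed lengths, 9 without replicate 1 and 7 without replicate 2. Because expressed and high are required in each library, leaving 1 out could only keep or raise these counts. With a fold minimum of 2, 0 members were higher in replicate 1 and 11 in replicate 2, against 7.23% and 14.5% of all tested genes. By the fold of TPM these were 3 and 18, against 21.7% and 21.2%. TPM moved the median log2 ratio of all tested genes to 0.08, against -0.05 by scaled counts. Of the 22 called differences, Atic lost its call with DESeq2 size factors (log2 ratio -0.58). By TPM Rrm1, Pfas and Atic lost theirs, and Impdh1 and Dck became higher in replicate 1. With 1 TPM added, Ctps over Ctps2 was 2.02 and Adss over Adssl1 4.64. Mthfd2 over Mthfd1 passed with fixed lengths (-0.21). Prps1 over Prps2 reversed with coding transcripts (1.56, then passing), with fixed lengths (0.44) and without replicate 2 (0.55), and was -2.10 without replicate 1. Paics over Ppat reversed with fixed lengths (-0.28) and without replicate 1 (-0.16), and was 0.49 without replicate 2. With coding transcripts alone the step medians were 6.05 TPM for serine, 7.41 for pyrimidine and 9.32 for purine genes. With fixed lengths, chosen after seeing the data, they were 61.6 for folate and 44.3 for deoxynucleotide genes, on a scale 1.40 times TPM for the median expressed coding gene. Leaving out a library gave serine medians of 2.03 and 6.66 TPM. The cause of these shifts was not tested. With 2 libraries of unequal depth, a difference that the spread hides cannot be told from none.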

Other observations

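Further genes of the same pathways, taken from a list chosen with earlier results of these data known, extend the picture to breakdown and interconversion. Of 50 listed, 49 were in the tables, 33 were expressed, 12 were high and 11 were not detected. The highest was Gmpr, which returns GMP to IMP, with 1616 TPM in replicate 1 and 1316 in replicate 2, above every one of the 38 synthesis genes. Ampd2, the AMP deaminase that returns AMP to IMP, followed with 1231 TPM in replicate 1 and 726.3 in replicate 2. Nme4, a mitochondrial nucleoside diphosphate kinase, had 301.1 TPM in replicate 1 and 229.9 in replicate 2, and Uck2, a uridine and cytidine kinase, had 204.1 TPM in replicate 1 and 235.8 in replicate 2. By TPM, Gmpr and Ampd2 were each above every purine synthesis member in both libraries. By the exact binomial test, 3 of the 38 tested genes of this list were higher in replicate 1 and 14 in replicate 2, against 17.1% and 24.3% of all tested genes.

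The not-detected genes of the list fall in a few places. Gldc and Amt, of the glycine cleavage system, had at most 2 counts in a library, while the shared subunits Gcsh and Dld were expressed, at 7.50 and 2.93 TPM in replicate 1 and 5.13 and 7.98 TPM in replicate 2. The folate receptors Folr1 and Folr2, the hydrolase Ggh and the histidine-linked enzyme Ftcd had 0 counts in both libraries. The reduced folate carrier Slc19a1 was expressed, at 9.46 TPM in replicate 1 and 12.2 in replicate 2. Aldh1l1 and Aldh1l2, which oxidise formyl folate, had at most 2 counts in a library. Xdh, which makes uric acid, the muscle AMP deaminase Ampd1 and the adenylate kinase Ak4 had 0 counts in both libraries. Genes named here outside the naming rule were chosen after their values were seen.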
